A study of Homo sapiens with 2 samples.

Results

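The piRNA pathway was examined in TCam-2 cells through 10 genes chosen by name: the PIWI genes PIWIL1, PIWIL2 and PIWIL4, the Tudor-domain genes TDRD1, TDRD9 and TDRKH, and the biogenesis and nuage genes MOV10L1, PLD6, ASZ1 and MAEL. All 10 were found among the 62700 genes of the gene table, and 64 of their 67 annotated transcripts were found in the transcript table. TCam-2 cells are a long-used human line that was derived from a seminoma, a germ cell tumour of the testis. Both libraries of the series came from TCam-2 cells transduced with DDX53 carrying a FLAG tag, DDX53 being a DEAD-box RNA helicase gene. They form 1 group of 2 replicates, and polyadenylated RNA was sequenced. The study's design sets them against cells transduced with GFP-FLAG and cells that were not transduced. The series holds no libraries of those controls, so no effect of DDX53 on any gene could be computed. The vector, its promoter and whether the cells are 1 clone are not given in the sources used here.

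PIWI proteins are Argonaute proteins of the germ line that bind piRNAs, a class of small RNA, and use them as guides to silence transposable elements. Precursor transcripts are handled by the helicase MOV10L1 and cut at the mitochondrial surface by PLD6, with ASZ1 and TDRKH as anchors there, and the resulting ends are trimmed and methylated. TDRD1 and TDRD9 belong to the nuage, the granular material next to the nucleus and mitochondria of germ cells in which PIWI proteins meet their targets. In the testis the pathway is active in fetal germ cells and in spermatocytes.

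The gene table summed to 24137664 reads (replicate 1) and 22198929 reads (replicate 2), and gene levels are given as CPM, counts scaled to a common total of reads in genes. DDX53 received 146 and 147 reads, or 6.05 and 6.62 CPM, which does not tell the construct from the cells' own gene. All 10 markers of seminoma and primordial germ cells reached 1 CPM in both libraries. Of 10 markers of later germ cells only DMC1 did, at 1.70 and 1.76 CPM, while 4 of them (DAZL, PRM1, SYCP1 and TNP1) were at 0 reads. Of 10 markers of testis somatic and blood cells 3 did (SOX9, AMH and GATA4). The labels do not say that the replicates came from separate cultures, so the p-values below measure only the spread between these libraries, which may be technical.

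The start sites of the genes are shown first, because detected and undetected genes of the 10 can be set side by side there. RefSeq windows of 300 bases on GRCh38.p14 ran from 250 bases before to 50 bases after a start. They were used for 7 of the genes, as 10 windows. PIWIL4 and PLD6 had no window in the set. PIWIL2 was left out by choice before counting, so the window counts below do not cover PIWIL2. The 4 windows below were chosen to set the detected genes TDRD9 and PIWIL1 beside the undetected genes MOV10L1 and TDRD1. All are on the plus strand, written 5′ to 3′, with CpG dinucleotides in capitals. The TDRD9 window is chr14:103928206-103928505, the PIWIL1 window chr12:130337637-130337936, the MOV10L1 window chr22:50089756-50090055 and the TDRD1 window chr10:114179037-114179336.
TDRD9: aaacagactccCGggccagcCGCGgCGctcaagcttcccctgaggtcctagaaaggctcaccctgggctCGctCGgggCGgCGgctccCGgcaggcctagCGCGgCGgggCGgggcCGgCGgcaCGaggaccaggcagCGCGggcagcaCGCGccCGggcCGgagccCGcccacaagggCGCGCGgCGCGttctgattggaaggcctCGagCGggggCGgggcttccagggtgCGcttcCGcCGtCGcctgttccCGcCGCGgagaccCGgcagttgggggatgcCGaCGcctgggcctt
PIWIL1: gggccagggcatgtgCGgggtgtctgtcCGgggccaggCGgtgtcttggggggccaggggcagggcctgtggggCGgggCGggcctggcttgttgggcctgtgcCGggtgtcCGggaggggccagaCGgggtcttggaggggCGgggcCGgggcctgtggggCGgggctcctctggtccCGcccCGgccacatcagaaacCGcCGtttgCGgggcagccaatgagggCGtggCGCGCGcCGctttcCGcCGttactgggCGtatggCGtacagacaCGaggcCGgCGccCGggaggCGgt
MOV10L1: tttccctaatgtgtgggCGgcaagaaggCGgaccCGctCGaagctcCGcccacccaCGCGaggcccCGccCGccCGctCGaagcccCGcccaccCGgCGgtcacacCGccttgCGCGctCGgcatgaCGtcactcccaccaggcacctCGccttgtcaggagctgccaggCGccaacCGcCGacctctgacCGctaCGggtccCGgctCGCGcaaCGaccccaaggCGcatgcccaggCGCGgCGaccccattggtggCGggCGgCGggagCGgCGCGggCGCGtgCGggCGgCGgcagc
TDRD1: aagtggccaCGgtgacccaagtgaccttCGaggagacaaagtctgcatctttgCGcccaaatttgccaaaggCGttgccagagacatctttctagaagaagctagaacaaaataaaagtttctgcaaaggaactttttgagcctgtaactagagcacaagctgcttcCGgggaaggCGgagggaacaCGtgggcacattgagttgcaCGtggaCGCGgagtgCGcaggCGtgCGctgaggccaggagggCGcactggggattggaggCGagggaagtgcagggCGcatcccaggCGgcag

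The TDRD9 window held 41 CpG and the MOV10L1 window 44, although TDRD9 had 500 and 553 reads and MOV10L1 had 0 and 1. The PIWIL1 window held 30 CpG and the TDRD1 window 17, against a median of 14 over all 35116 windows. The ratio of observed to expected CpG was over 0.6 in 10 of the 10 windows of these genes, from 0.746 to 1.12, and in 48.8% of all windows. Detected and undetected genes whose windows were used were thus on the same side of the ratio of 0.6. GC content ran from 56.3% (TDRD1) to 84.7% (MAEL). Methylation was not measured in this series.

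The windows were searched on both strands for 3 short motifs. TAACNG, the core bound by MYB proteins such as the germ cell factor A-MYB, occurred in 4 of the 10 windows (PIWIL1, both windows of TDRKH and the second window of MAEL) and in 20.8% of all windows. The TDRKH windows overlap and hold the same match, which leaves 3 places in the genome. CACGTG, an E-box bound by MAX with its partners, occurred in 3 of the 10 windows and in 7.26% of all. It was found 2 times in the TDRD1 window printed above, 65 and 45 bases before the start, and these letters also lie in the second TDRD1 window, which overlaps the first. TCCCGC, an E2F core, occurred in 6 of the 10 windows and in 26.9% of all. In these windows 0 matches to different motifs overlapped. A match of this length is a description of the letters and not a site of binding.

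Of the 10 genes, 4 reached 1 CPM in both libraries: TDRKH, TDRD9, PLD6 and PIWIL1. The background is 21.7% of all genes and 61.7% of the 19831 protein-coding genes. PIWIL4 reached 1 CPM in replicate 2 only, and PIWIL2, TDRD1, MOV10L1, ASZ1 and MAEL in neither library. Each of the 10 genes had at least 1 read in the libraries together. TDRKH alone took 66.0% of the reads of the 10 genes in replicate 1 and 62.7% in replicate 2, and TDRD9 took 23.7% and 26.1%. Summed over the 10 genes, the level was 87.3 CPM in replicate 1 and 95.3 CPM in replicate 2. In bulk RNA, fewer expressing cells and less RNA in each cell cannot be told apart.

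**Figure D1:**
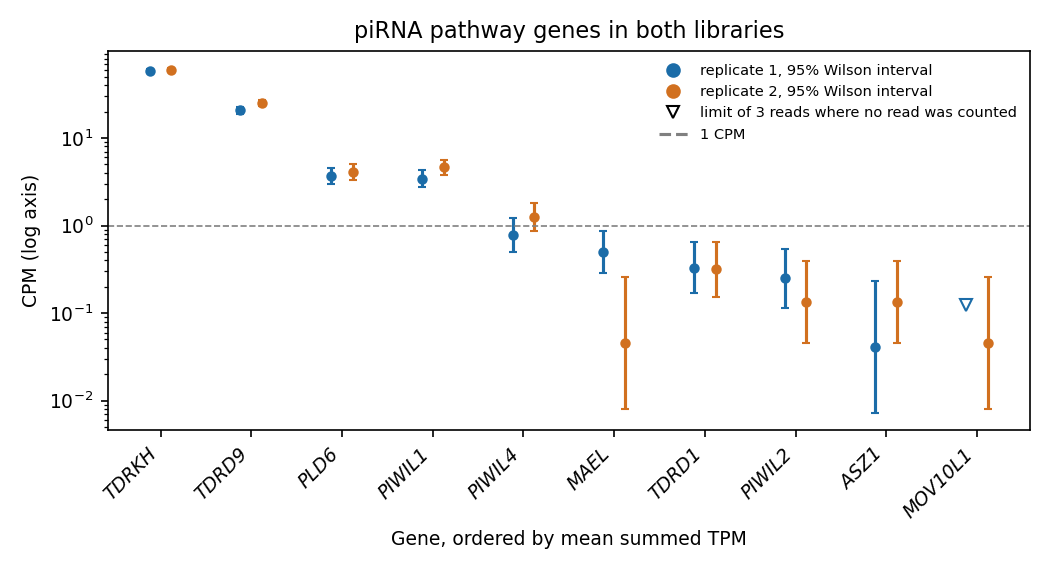
CPM on a log axis for each of the 10 genes in replicate 1 and replicate 2. Points are libraries, bars are 95% Wilson intervals for counting error, the open triangle is the limit of 3 reads for MOV10L1 in replicate 1, and the dashed line is 1 CPM. TDRKH, TDRD9, PLD6 and PIWIL1 lie above the line in both libraries.

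Among the PIWI genes, PIWIL1 had the most reads. PIWIL1 (ENSG00000125207.7, chromosome 12 from 130337887 to 130372637, plus strand, GRCh38) encodes the PIWI protein HIWI, known in meiotic germ cells. It received 83 and 103 reads. The levels were 3.44 CPM in replicate 1, with a 95% Wilson interval of 2.77 to 4.26, and 4.64 CPM in replicate 2, with an interval of 3.83 to 5.63. These intervals overlapped around a mean of 4.04 ± 0.849 CPM (SD, n = 2). Per kilobase of exon, PIWIL1 was above 45.3% of protein-coding genes.

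PIWIL4 (ENSG00000134627.12, chromosome 11 from 94543840 to 94621421, plus strand) encodes HIWI2, the counterpart of the mouse protein that carries piRNAs into the nucleus. It received 19 and 28 reads, or 0.787 CPM (95% Wilson interval, 0.504 to 1.23) and 1.26 CPM (0.873 to 1.82). Both intervals include 1 CPM, so its side of the threshold was not resolved at this depth. PIWIL4 shares 683 exonic bases on the same strand, 15.0% of its exons, with FUT4, a fucosyltransferase gene at 21.5 and 19.9 CPM. On the opposite strand 489 exonic bases overlap AP000943.3, which had 0 reads in both libraries. How reads in shared exons were counted is not stated, so the count of PIWIL4 is uncertain.

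PIWIL2 (ENSG00000197181.12, chromosome 8) encodes HILI, the counterpart of a mouse protein that cuts target transcripts. It received 6 and 3 reads, or 0.249 CPM (95% Wilson interval, 0.114 to 0.542) and 0.135 CPM (0.0460 to 0.397). Both libraries were thus below 1 CPM with their whole interval. The remaining PIWI gene, PIWIL3, was at 0 reads in both libraries, so that a level of 0.124 CPM (replicate 1) or 0.135 CPM (replicate 2), worth 3 reads, could have gone unseen. Because no molecular identifiers were read, these limits and the intervals describe counting error alone.

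The Tudor-domain genes held the highest levels of the 10. TDRKH (ENSG00000182134.17, chromosome 1 from 151770107 to 151791416, minus strand) encodes a mitochondrial Tudor protein with KH domains that binds PIWI proteins during trimming. It received 1391 and 1326 reads, or 57.6 and 59.7 CPM, with a mean of 58.7 ± 1.49 CPM (SD, n = 2). Per kilobase, TDRKH was above 81.5% of protein-coding genes. Its exons overlap those of the antisense gene TDRKH-AS1 by 436 bases, and TDRKH-AS1 had 83 and 80 reads. Exons of TDRKH also overlap OAZ3 on the opposite strand by 86 bases, and OAZ3 had 72 and 57 reads. The libraries are strand-specific, but whether strand was used in counting is not stated.

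TDRD9 (ENSG00000156414.20, chromosome 14 from 103928462 to 104052667, plus strand) encodes a Tudor protein that is also an RNA helicase. It received 500 and 553 reads, or 20.7 CPM (95% Wilson interval, 19.0 to 22.6) and 24.9 CPM (22.9 to 27.1), with a mean of 22.8 ± 2.97 CPM (SD, n = 2). The intervals of the libraries did not overlap. TDRD1 (ENSG00000095627.10, chromosome 10 from 114179270 to 114232304, plus strand), a scaffold with several Tudor domains that bind methylated arginines of PIWI proteins, received 8 and 7 reads, or 0.331 and 0.315 CPM. So 2 of the 3 Tudor genes were detected, and TDRD1 lay below 1 CPM in both libraries.

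Of the biogenesis and nuage genes only PLD6 was detected. PLD6 (ENSG00000179598.6, chromosome 17 from 17200995 to 17206315, minus strand) encodes a nuclease of the outer mitochondrial membrane. It received 88 and 90 reads, or 3.65 and 4.05 CPM, with a mean of 3.85 ± 0.289 CPM (SD, n = 2). Of its exons 450 bases are shared on the same strand with AC055811.2, a gene with 1 and 0 reads, and 176 bases overlap MPRIP on the opposite strand, a gene at 96.4 and 91.4 CPM. Its count is therefore uncertain, and the share of such reads was not tested.

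MOV10L1 (ENSG00000073146.17, chromosome 22 from 50089879 to 50161690, plus strand), the helicase that feeds precursors into processing, had 0 reads in replicate 1 and 1 read in replicate 2. ASZ1 (ENSG00000154438.8, chromosome 7 from 117363222 to 117428123, minus strand), a mitochondrial protein that holds nuage together, had 1 and 3 reads. At this depth neither was distinguishable from the 3 reads that a count of 0 allows. MAEL (ENSG00000143194.13, chromosome 1 from 166975582 to 167022214, plus strand), a nuage protein with an HMG box, had 12 reads in replicate 1 and 1 read in replicate 2. These gave 0.497 CPM, with a 95% Wilson interval of 0.284 to 0.869, and 0.0450 CPM, with an interval of 0.00795 to 0.255. MAEL is thus low in both libraries, with intervals that do not meet.

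Levels of different genes were compared per length, as TPM summed over the transcripts of a gene. TDRKH was highest with 28.2 and 28.7 TPM, 4.61 times the mean of TDRD9, which had 5.46 and 6.90 TPM. TDRD9 was 2.23 times PLD6, which had 2.64 and 2.90 TPM, and PLD6 was 1.70 times PIWIL1, which had 1.40 and 1.87 TPM. PIWIL1 was 3.42 times PIWIL4, which had 0.309 and 0.646 TPM. For each of these neighbours the lower value of the higher gene exceeded the higher value of the lower gene.

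From PIWIL4 downward, neighbours in TPM did not differ beyond their range over the libraries. MAEL had 0.406 and 0.0361 TPM, TDRD1 had 0.0971 and 0.0443 TPM, and PIWIL2 had 0.0604 and 0.0325 TPM. ASZ1 and MOV10L1 were listed at 0 TPM in replicate 1, and at 0.0914 and 0.0448 TPM in replicate 2. RPKM, here CPM per kilobase of merged exons, gave the same place to 10 of the 10 genes. In RPKM the ranges did separate for PIWIL4 over MAEL, TDRD1 over PIWIL2 and ASZ1 over MOV10L1, on few reads. The order was not tested across samples.

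The transcript table describes which forms of each gene carried these levels. In 7 of the 10 genes the same transcript was highest in both libraries. PIWIL1-201, with 21 exons and 3897 bases, carried 1.13 and 1.58 TPM, and the rest lay in PIWIL1-208 in replicate 1 (0.273 TPM) and PIWIL1-204 in replicate 2 (0.280 TPM), which have 5 exons each. TDRD9-202, with 36 exons and 4782 bases, carried 100% of the TPM of TDRD9 in replicate 1 and 94.3% in replicate 2. PLD6 has a single transcript, of 2 exons. The depth behind a TPM is unknown, so no interval is given.

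TDRKH was spread over 10 transcripts. TDRKH-207 held 35.8% (replicate 1) and 37.3% (replicate 2) of the TPM of TDRKH, and TDRKH-203 held 26.0% and 22.5%; both have 13 exons. Protein-coding transcripts together held 82.1% and 84.7%. Transcripts annotated as targets of nonsense-mediated decay, TDRKH-214 and TDRKH-212, held 15.8% and 13.6%. The order of the first and second TDRKH transcripts was the same in both libraries.

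Among the low genes, PIWIL2-201 with 23 exons was the only form above 0 TPM for PIWIL2, and MAEL-206 with 13 exons the only form for MAEL. The TDRD1 form changed from TDRD1-202 in replicate 1 to TDRD1-201 in replicate 2, on 8 and 7 reads. The only form of ASZ1, ASZ1-203, is annotated as a target of nonsense-mediated decay. These assignments rest on few reads.

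**Figure D2:**
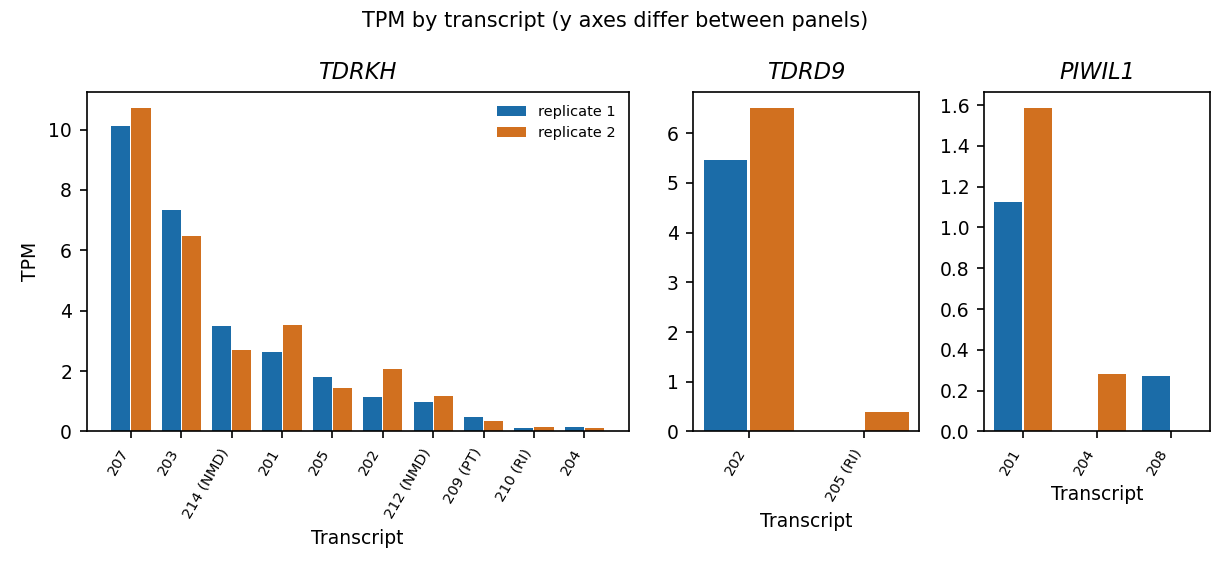
TPM of each transcript above 0 for TDRKH, TDRD9 and PIWIL1, with 1 bar for each replicate and a y axis of its own in each panel. NMD marks nonsense-mediated decay, RI a retained intron and PT a processed transcript. TDRD9-202 and PIWIL1-201 carry most of their genes, while TDRKH is divided over 10 transcripts led by TDRKH-207.

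The 2 tables were compared for the same genes. Reads of the detected genes were 1.13 (PIWIL1), 1.18 (TDRD9), 1.17 (TDRKH) and 0.803 (PLD6) times the number predicted from TPM and transcript length in replicate 1. In replicate 2 the ratios were 1.09, 1.18, 1.17 and 0.813, in the same order of genes. On the log2 scale these lie between -0.32 and 0.24, inside the range of -0.68 to 1.15 that holds the central 90% of 12170 detected protein-coding genes in replicate 1. Of the others, PIWIL4, whose exons meet those of FUT4, had ratios of 1.19 and 1.12, and PIWIL2 and MAEL had ratios from 1.08 to 1.21. TDRD1 had 1.22 in replicate 1 and 2.35 in replicate 2 (log2 1.23), beyond the upper bound of 1.15 in that library, on 7 reads. ASZ1 had 1.54 and MOV10L1 1.05 in replicate 2, on 3 reads and 1 read.

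The replicates were then set against counting noise, with an exact binomial test for each gene in edgeR (two-sided, Benjamini-Hochberg adjustment over 15299 genes). The test compares 2 libraries of 1 group, not conditions. Of the 10 genes 5 passed the filter on low counts, and 1 of these 5 was called, against 13.1% of all genes tested (6.78% of all genes were called as higher in replicate 2). TDRD9 was 1.20 times higher in replicate 2 (95% interval, 1.06 to 1.36; log2 difference 0.25; edgeR exact binomial test, adjusted p = 0.0221). PIWIL1 was 1.35 times as high in replicate 2 (1.00 to 1.82; edgeR exact binomial test, p = 0.0399, adjusted p = 0.180), which did not pass.

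For the other tested genes, the ratio of replicate 2 to replicate 1 was 1.04 (95% interval, 0.961 to 1.12) for TDRKH, 1.11 (0.820 to 1.51) for PLD6 and 1.60 (0.864 to 3.04) for PIWIL4. The interval of TDRKH is narrow, on 2717 reads, and that of PIWIL4 wide, on 47 reads. The edgeR exact binomial test gave adjusted p of 0.567, 0.756 and 0.336. Among the genes below the filter, MAEL was 11.04 times higher in replicate 1, with a counting interval from 1.63 to 472. Tested over all genes with a read, MAEL had p = 0.0038 and an adjusted p of 0.0563 (edgeR exact binomial test), and did not pass. ACR, a sperm acrosome gene among the 10 markers of later germ cells, had 12 and 2 reads, and DDX4 had 7 and 4. Others went the other way or stayed level: SYCP3 had 1 and 2 reads, STRA8 and PRM2 each 0 and 1, and DMC1 41 and 39. The remaining 4 were at 0 reads. The summed level of the 10 markers was 2.53 and 2.21 CPM, of which ACR gave 0.497 and 0.0901. The part of these markers in the difference of MAEL was not tested.

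**Figure D3:**
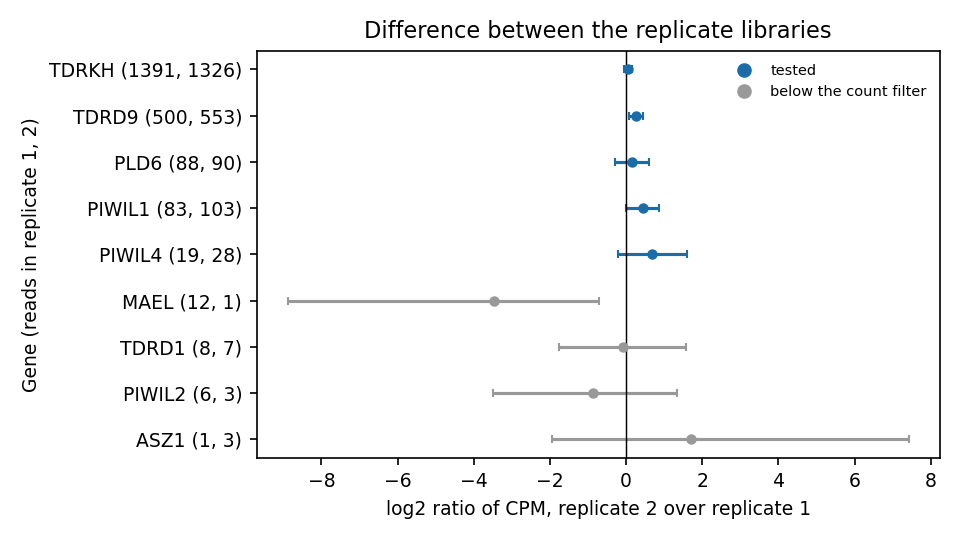
The log2 ratio of CPM, replicate 2 over replicate 1, for the 9 genes with a read in both libraries. Bars are exact 95% intervals for counting error, and grey marks genes below the count filter. TDRD9 and, narrowly, PIWIL1 lie above 0 with their intervals, and MAEL lies below it, with 12 reads and 1 read; of these 3 only TDRD9 passed the adjusted test.

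The other genes of the pathway were taken from a list of 22. Of these, 11 reached 1 CPM in both libraries, 7 had a few reads, and 4 were at 0 reads throughout (PIWIL3, TDRD15, FKBP6 and BTBD18). With the 10 genes above, 15 of 32 pathway genes (46.9%) were detected, against 61.7% of protein-coding genes and 21.7% of all genes. At 1 TPM summed per gene, 8 of the 22 were detected. Median levels per length were 0.165 and 0.168 RPKM over the 10 genes and 0.101 and 0.0843 over the 22, against 1.30 and 1.29 over all protein-coding genes.

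HENMT1, the methyltransferase of piRNA 3′ ends, had 47.3 and 45.5 CPM. Its reads were 5.50 and 5.84 times the number predicted from its 7.31 and 7.44 TPM, so the level of HENMT1 is uncertain. PNLDC1, the trimming nuclease, had 1.45 and 1.76 CPM, from 35 and 39 reads. Both were on the same side of 1 CPM in both libraries. TDRD12, a Tudor protein with a helicase domain, had the most reads of the list, with 171 and 169 CPM, which were 3.37 and 3.31 times the prediction from TPM. TDRD5 had 21.0 and 22.1 CPM, TDRD7 13.5 and 12.7 CPM, and RNF17, another Tudor protein, 11.3 and 10.4 CPM.

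Of transcription factors of the pathway, MYBL1, which encodes A-MYB, had 4.43 and 4.55 CPM, and TCFL5 had 49.2 and 49.8 CPM. Among genes that link piRNAs to DNA methylation in mouse germ cells, DNMT3L had 73.2 and 51.0 CPM, SPOCD1 had 2.07 and 1.26 CPM and TEX15 had 1.49 and 1.44 CPM. Of the list, 11 genes were tested and 1 was called, DNMT3L, against 13.1% of all genes tested (6.35% as lower in replicate 2). DNMT3L was lower in replicate 2 with a log2 difference of -0.51 (edgeR exact binomial test, adjusted p = 6.47e-19). DDX4, the germ cell helicase VASA, had 7 and 4 reads, GTSF1, a partner of PIWI proteins, 4 and 1, and STK31 7 and 6. TDRD6, EXD1, MORC1 and GPAT2 had at most 3 reads in a library.

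Genes listed for related machinery outside the germ line pathway were all detected, against 61.7% of protein-coding genes and 21.7% of all genes. These lists were chosen with earlier results of these data known, so their full detection is a description and not a test. The 13 Argonaute and microRNA genes had median levels of 7.21 and 5.88 RPKM, from AGO3 at 0.517 ± 0.00258 to XPO5 at 15.3 ± 0.562 (SD, n = 2). Both ends depended on the scale: in TPM they ran from TNRC6B at 2.07 ± 0.161 to TARBP2 at 50.1 ± 1.72 (SD, n = 2). PIWIL1 was below AGO1, AGO2 and AGO4 in both libraries on both scales. Against AGO3 the direction turned with the scale, PIWIL1 being higher in RPKM (0.651 and 0.879 against 0.519 and 0.515) and lower in TPM (1.40 and 1.87 against 2.67 and 3.93). MOV10, the widely expressed relative of MOV10L1, was at 26.2 ± 0.819 RPKM (SD, n = 2), against 0 and 0.00656 for MOV10L1. The 6 genes listed as widely expressed relatives ranged from TDRD3 at 1.61 to HSP90AA1 at 548.9 RPKM. HSP90AA1 and FKBP4 of this list are not relatives of any of the 10 genes. The 9 repressors of transposable elements outside the pathway ranged from PPHLN1 at 6.34 to TRIM28 at 314.9 on that scale, while in TPM the lowest was UHRF1 at 12.4 and PPHLN1 stood at 54.9. TDRKH, at 11.5 ± 0.292 RPKM and 28.5 ± 0.318 TPM (SD, n = 2), was the only 1 of the 10 genes within the range of these 9 repressors on either scale.

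**Figure D4:**
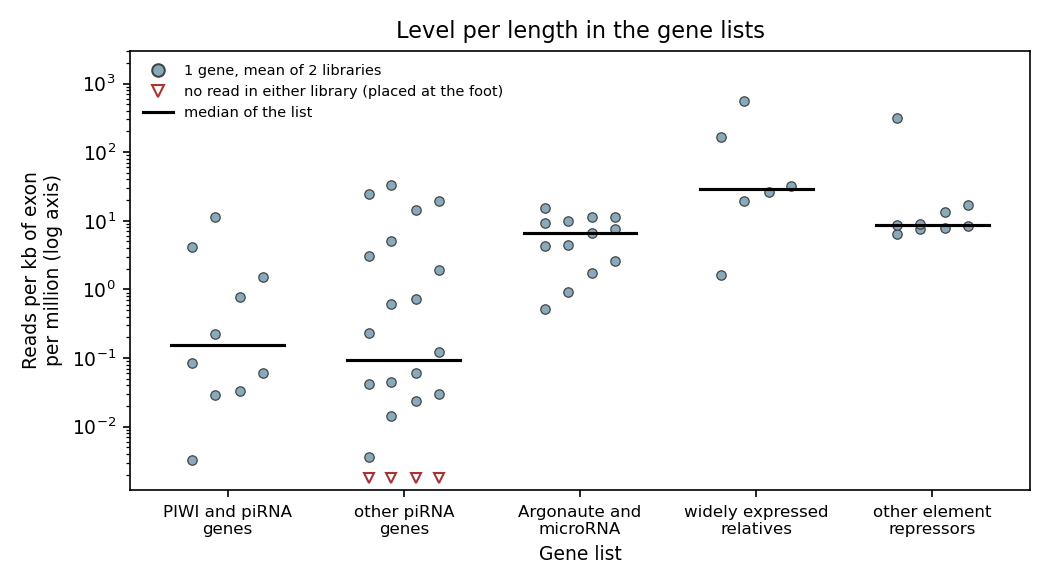
RPKM on a log axis for the 10 PIWI and piRNA genes, 22 other piRNA genes and 13 Argonaute and microRNA genes. Also shown are 6 genes listed as widely expressed relatives and 9 other element repressors. Points are genes (mean of 2 libraries), bars are medians, and triangles at the foot are the 4 genes with no read. The piRNA lists span from no read or near it to over 10, while the other lists start at 0.517 or higher on this scale.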

How the data were processed

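Polyadenylated RNA of 2 replicates of 1 group was measured. The authors call their gene table CPM, yet its deposited signal is read counts over a size factor: 100% of values above 0 were whole multiples (within 0.001 reads) of 1 read, worth 1.02 and 1.12. The authors' TPM are per transcript. The submitters' processing notes list Trim Galore 0.6.10, STAR 2.7.11a, DESeq2, Salmon 1.10.2 and GRCh38, while the counter and annotation are not given in the sources used here. Both headers name the libraries without a name for the identifiers, so names were taken in the order of the value columns; 0 value columns went unused.

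CPM were computed from the recovered reads and library totals. Gene names came from the supplied table, which matched 62700 identifiers. Transcripts were assigned through GENCODE 29 on GRCh38 (201667 of 251955 matched, with 94.8% of TPM in each library), which also gave merged exon lengths and overlaps (bedtools 2.31.1). Detection meant at least 1 CPM in each library. The replicates were compared with edgeR 4.0.16 (binomTest, TMM sizes, filterByExpr, adjusted p threshold 0.05), tested on data simulated with counting noise alone. There 147 of 147 changes of 2-fold were called for genes of 200 reads or more over both libraries, and 16 of 53 (30.2%) below. PIWIL1, PLD6 and PIWIL4 are below 200 reads, so changes of that size could be missed in them. The log2 differences carry a pseudocount of 1 CPM, which understates low genes. DESeq2 1.42.0 size factors, other thresholds, a pseudocount of 0.1, all genes with a read, summed TPM, protein-coding transcripts and each library alone were alternatives. The named genes are the 10 genes, DDX53, detected and unread genes of the pathway list, the highest and lowest gene of each other list (in RPKM or TPM), and genes sharing exons with the 10. DDX4, GTSF1, STK31, TDRD6, EXD1, MORC1, GPAT2, MOV10, AGO1, AGO2, AGO4, ACR and the marker genes were named outside this rule, after their values were seen. The 10 genes and all lists were chosen with earlier results of these data known.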

Additional observations from a re-analysis of the deposited data

How the results depend on the processing

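No paired analysis was possible because both libraries belong to 1 group. The number of the 10 genes detected was 7 at a threshold of 0.1 CPM and 2 at 5 CPM, against 4 at 1 CPM, and the other pathway genes detected numbered 7 at 5 CPM, against 11. Taking each library alone gave 4 to 5 of the 10 genes, PIWIL4 being the addition. The other 20 alternatives for counts over the lists stayed within 1.5 times of the reported count, and 8 of the 10 genes kept their place when only protein-coding transcripts were summed, ASZ1 and MOV10L1 changing places. TDRD9 stayed the only gene of the 10 called, with adjusted p from 0.0283 (DESeq2 size factors) to 0.0379 (all genes with a read) in the edgeR exact binomial test. All genes called numbered 1713 to 1989 under these, against 2008. Each of the 30 alternative levels moved by less than the SD, which for a library left out follows from there being 2 libraries. Depth limits the low genes: MAEL, TDRD1, PIWIL2, ASZ1 and MOV10L1 had 1 to 15 reads over both libraries.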

Other observations

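TDRD12, a relative of TDRD9, was the pathway gene with the most reads. Among its transcripts assigned through GENCODE 29, short forms held most of the TPM. TDRD12-205, with 5 exons and 503 bases, held 43.7% of its TPM in replicate 1 and 42.0% in replicate 2, and TDRD12-201, with 13 exons and 1317 bases, held 29.3% and 34.3%. The longest form, TDRD12-206 with 33 exons and 4215 bases, had 0.532 and 0.507 TPM, 1.05% and 0.969% of the gene. Reads of TDRD12 were 3.37 (replicate 1) and 3.31 (replicate 2) times the number predicted from TPM. Transcripts without a match in GENCODE 29 were not counted. The TPM of TDRD12 and these shares are therefore uncertain. TDRD9, in contrast, was carried by its form of 36 exons, and PIWIL1 by its form of 21 exons. The difference between TDRD12 and these genes was not tested. These forms were described after their values were seen.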
